A study of Mus musculus with 60 samples.

Results

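Nnt, Entpd4 and Wdfy1 are genes whose mRNA levels are known to differ between substrains of C57BL/6 mice. Each of the 3 names matched 1 of the 47597 gene entries in every table, so the set held 3 entries, and all 3 passed the filter on low values (a mean of at least 0.5 over the libraries). They were read in 60 RNA-Seq libraries of brain tissue, labelled cortex or striatum, from mice of the strain given as c57BL-6N at an age of 3 months. The labels name 10 groups of 6 libraries with 3 males and 3 females each. By line, genotype, sex and number they name 30 mice, each with 1 library of either tissue, so by these labels the 60 libraries are not 60 animals. For each tissue, the Δ12 line gave 3 groups, labelled +/+, Δ12/+ and Δ12/Δ12, and the KO line gave 2, labelled +/+ and KO/+. The Δ12 allele lacks part of exon 12 of Htt and was made by CRISPR/Cas9 in C57BL/6 embryonic stem cells. The KO allele came from a founder in which the repair failed and the splice donor of that exon was lost. Each line stands for 1 edited allele, and each has +/+ controls of its own.

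Substrains of C57BL/6 were separated by decades of breeding and carry fixed differences that can be read in RNA. Nnt encodes nicotinamide nucleotide transhydrogenase, an enzyme of the inner mitochondrial membrane that uses the proton gradient to make NADPH. C57BL/6J mice lack several exons of Nnt and C57BL/6N mice do not, which is why the gene is used to tell these substrains apart. Entpd4 encodes a nucleoside diphosphatase of the Golgi apparatus and lysosomes. Wdfy1 encodes a protein with WD repeats and a FYVE domain, which binds a phosphoinositide of early endosomes and links Toll-like receptors 3 and 4 to their adaptor. GRCm38 was built from C57BL/6J DNA, so exons that this substrain lacks are not in the reference and their reads add nothing to a value of Nnt.

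On GRCm38, Nnt lies on the minus strand of chromosome 13 from 119335448 to 119408997, with 17 exons in its longest coding transcript. Wdfy1 lies on the minus strand of chromosome 1 from 79702262 to 79776143, with 12 exons in its longest transcript. Entpd4 lies on the plus strand of chromosome 14 from 69337174 to 69367270, and a copy of the gene starts 218250 bp downstream. The annotation names this copy Entpd4b and the deposited tables list it as Gm21685 (69555424 to 69585520, plus strand). All 5 annotated transcripts of the copy were identical in sequence to a transcript of Entpd4, and the longest pair had 0 mismatches over 3589 nucleotides. Reads from the exons of these entries can therefore not be assigned to 1 of them, and both values are uncertain. Exon 4 of 13, wholly coding, is shown because it stands for this identity: its 206 bases were the same at chr14:69350703-69350908 (Entpd4) and chr14:69568953-69569158 (Gm21685), and no letter is in capitals since no base differed.
Entpd4 and Gm21685, exon 4: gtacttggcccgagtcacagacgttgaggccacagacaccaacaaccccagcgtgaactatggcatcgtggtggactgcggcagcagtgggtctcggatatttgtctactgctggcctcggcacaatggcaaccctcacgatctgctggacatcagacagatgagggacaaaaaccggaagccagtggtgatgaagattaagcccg

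The values are FPKM, which count fragments relative to transcript length and library depth, divided by a scale factor per library (the median ratio to the geometric mean of all libraries). Depth, estimated from the interval bounds in the tables, was 12.7 to 27.5 (in units of 1000000 fragments) per library. The labelled tissue did not match the marker genes in many libraries. The libraries were split by Slc17a7, the vesicular glutamate transporter of cortical neurons. It was above 100 FPKM as deposited in 30 libraries, called cortex-like here, of which 15 were labelled cortex and 15 striatum. The other 30 libraries, called striatum-like, were likewise labelled cortex in 15 cases and striatum in 15. The lowest cortex-like library was at 121 FPKM and the highest striatum-like one at 64.8. All 8 striatal markers were higher in every striatum-like library than in any cortex-like one. Of the 6 cortical markers, only Slc17a7, which set the classes, separated them without overlap, and Cux2 was at a median of 5.16 in the striatum-like and 3.90 in the cortex-like libraries, so the class names stand for Slc17a7 and the striatal markers. All 30 cortex-like libraries were labelled as Δ12 line, and the striatum-like ones were the 24 labelled as KO line and the 6 labelled as Δ12/Δ12 females. The sex-linked transcripts Xist and Ddx3y matched the sex on the label in only 30 of the 60. Htt, the edited gene, was at 12.7 to 19.7 rescaled FPKM in the libraries labelled striatum KO/+ and at 13.9 to 20.0 in those labelled cortex KO/+, which overlapped the 16.8 to 20.7 and 16.6 to 20.2 of the +/+ libraries of that line. Every group below is thus a set of libraries labelled as such, and no library was moved. A lower level in a tissue extract can be fewer cells of a type or less RNA per cell, which cannot be told apart.

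Nnt was present in every library. Its rescaled FPKM ran from 5.21 in a library labelled cortex, Δ12 line, +/+ (female 1) to 11.1 in a library labelled striatum, Δ12 line, Δ12/+ (female 3), with a median of 8.65 over the 60 libraries. The highest value was 2.13 times the lowest. The lowest of the 60 lower interval bounds was 5.60 FPKM, and the half-width of the deposited interval had a median of 10.1% of the value in the cortex-like and 9.53% in the striatum-like libraries. No library was near 0, and no group of libraries stood apart at a low level.

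Entpd4 had the narrowest range. It was at 3.22 rescaled FPKM in 1 library labelled cortex, Δ12 line, +/+ (male 1), at a median of 3.86, and at 5.55 in another library of the same labelled group (female 1). The lowest lower bound was 2.24 FPKM, and the median half-widths of the interval were 15.3% and 16.0% in the cortex-like and striatum-like libraries. The extremes of all 60 libraries thus fell in 1 labelled group.

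Wdfy1 varied most. Its lowest value was 4.06 rescaled FPKM, in a library labelled striatum, Δ12 line, Δ12/Δ12 (male 1), its median was 8.21, and its highest was 11.2, in a library labelled striatum, Δ12 line, +/+ (female 3). The highest was 2.75 times the lowest. The lowest lower bound was 3.09 FPKM. Its intervals were the widest of the members, with a median half-width of 25.6% in the cortex-like and 17.2% in the striatum-like libraries.

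**Figure D1:**
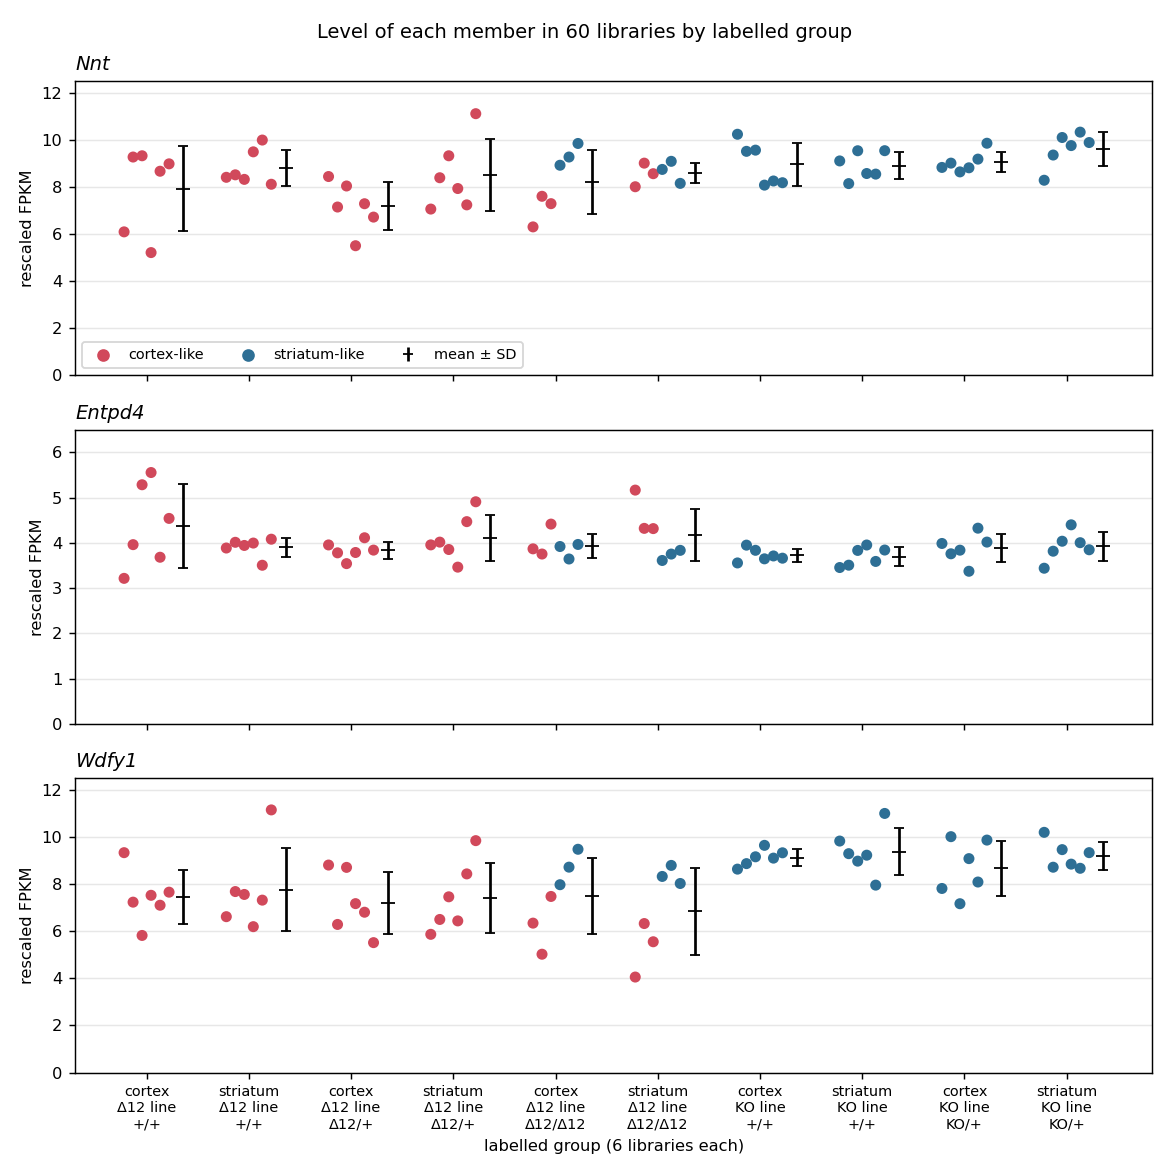
Rescaled FPKM of Nnt, Entpd4 and Wdfy1 (vertical axes, from 0) in the 60 libraries, 6 for each of the 10 labelled groups on the horizontal axis; each point is 1 library, coloured by expression class, and the bars are means ± SD. No library is near 0 in any panel, groups that follow each other in the order of their means overlap, and the points of the cortex-like libraries are spread more widely.

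A mixture of substrains can show as 2 separate levels of such a gene. The libraries were therefore sorted by log2(rescaled FPKM + 0.5), and the widest gap between neighbours with at least 5 libraries on each side was taken. For Nnt this gap was 0.067 on the log2 scale, between the 5 lowest libraries and the other 55. For Entpd4 it was 0.062, between 49 libraries and the 11 highest, and for Wdfy1 it was 0.072, between the 6 lowest and the other 54. A gap of at least 0.5 was called 2 levels. None of the 3 members reached it, while 3495 of 16076 entries tested did (21.7%). Gaps as wide as those of Nnt, Entpd4 and Wdfy1 or wider were found in 85.1%, 87.4% and 82.6% of the entries. No member was bimodal by this measure, which was not tried on levels less than 1 apart on the log2 scale.

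No member had 2 levels within an expression class either, where at least 3 libraries were required on each side. In the 30 cortex-like libraries the widest gaps were 0.086 for Nnt, 0.102 for Entpd4 and 0.126 for Wdfy1, where 4.27% of entries had a gap of at least 0.5. In the 30 striatum-like libraries they were 0.042, 0.024 and 0.050, where 1.97% did. For comparison, Ddx3y, a gene of the Y chromosome, had a gap of 3.39 over the 60 libraries, with 30 on each side.

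**Figure D2:**
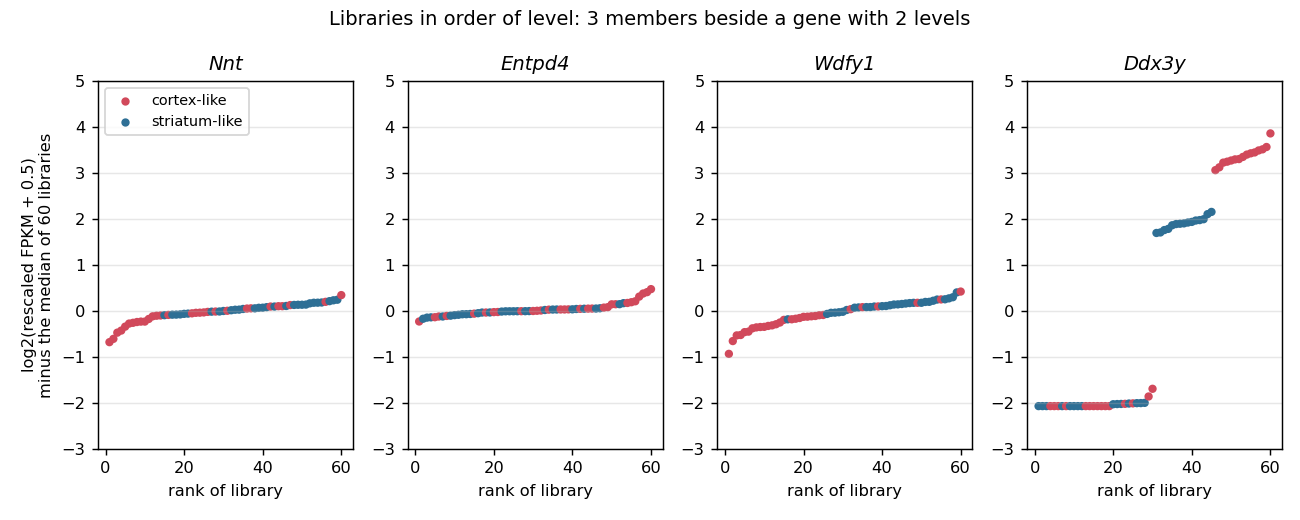
The 60 libraries in rising order of log2(rescaled FPKM + 0.5), less the median of the gene, for Nnt, Entpd4, Wdfy1 and Ddx3y; each point is 1 library, coloured by expression class, on 1 vertical scale. The members rise without a step (largest gaps 0.067, 0.062 and 0.072), whereas Ddx3y has a step of 3.39.

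The question of the labelled line was read in 1 fit of all 60 libraries (limma on the log2 scale, Benjamini-Hochberg adjustment over 16076 entries) with labelled line and expression class as terms. No member passed the threshold for line. KO line minus Δ12 line was 0.02 ± 0.08 (log2 difference ± SE) for Nnt, with a 95% interval of -0.15 to 0.18. For Entpd4 it was 0.005 ± 0.061, with an interval of -0.12 to 0.13, and for Wdfy1 it was 0.08 ± 0.10, with an interval of -0.11 to 0.28. The adjusted p of limma was 1 for each member. Of all entries, 0 of 16076 (0%) passed for line, and 316 had an unadjusted p under 0.05. With a class limit of 50 in place of 100 FPKM, which moved 2 libraries, 6629 entries passed for line, and the members did not (adjusted p of limma between 0.235 and 0.609). In the fit with the class limit of 100 FPKM, the upper bounds of the intervals correspond to 1.14-fold for Nnt, 1.09-fold for Entpd4 and 1.21-fold for Wdfy1. The fit takes 1 spread per entry from both classes, and the cortex-like libraries varied more. For Nnt the SD on the log2 scale was 0.231 in them and 0.101 in the striatum-like ones. These intervals and p-values are therefore not those of the striatum-like libraries alone.

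All KO-line libraries were striatum-like, so the line was separable from the class only through the 6 striatum-like libraries labelled Δ12/Δ12 female. In these 6, Nnt was at 8.15, 9.01 and 9.85 rescaled FPKM (lowest, median and highest), against 8.08, 9.14 and 10.3 in the 24 libraries labelled as KO line. Entpd4 was at 3.61, 3.79 and 3.96 against 3.37, 3.83 and 4.40. Wdfy1 was at 7.98, 8.53 and 9.48 against 7.17, 9.14 and 11.0. For each member the values of the 6 lay within those of the 24. A range of 24 libraries will often hold 6 others. The share of all entries for which it did was not counted, so this says little about line.

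By expression class, Wdfy1 was higher in the striatum-like libraries on the rescaled FPKM, though not on the FPKM as deposited. Its rescaled FPKM was 8.99 ± 0.81 (SD, n = 30 libraries) there and 7.13 ± 1.48 (n = 30) in the cortex-like libraries, and 15 of the 30 cortex-like libraries lay below the lowest striatum-like one (7.17). Both libraries of each labelled mouse fell in the same class, so each 30 libraries stand for 15 labelled mice. By Ddx3y, the libraries of a labelled mouse were not always of the same sex. For Δ12 line +/+ male 2 it was at -0.94 in the cortex and 4.37 in the striatum library on the log2 scale. A block by labelled mouse can therefore not account for repeated animals. In the fit with line and class, the difference of Wdfy1 was 0.27 ± 0.10 on the log2 scale, or 1.21-fold (95% interval 1.06 to 1.38, adjusted p of limma = 0.0087, or 0.00997 with the labelled mouse as a block). Since all KO-line libraries were striatum-like, this value sets the 6 striatum-like libraries of the Δ12 line (3 labelled mice) against the 30 cortex-like ones, and the other 24 add only to the estimate of the spread. The 6 were all labelled Δ12/Δ12 female and none of the 30 was, so class cannot be told apart from that labelled group in this fit. Without the group labelled Δ12/Δ12 of cortex it was 0.23 (adjusted p of limma = 0.115), and without that of striatum 0.25 (adjusted p = 0.0508).

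Nnt was at 9.11 ± 0.67 (n = 30) rescaled FPKM in the striatum-like and 8.05 ± 1.31 (n = 30) in the cortex-like libraries. Of the latter, 14 lay below the lowest striatum-like value (8.08) and 15 within the range of the striatum-like libraries. The difference in the fit with line and class, again that of the 6 libraries from the 30 cortex-like ones, was 0.17 ± 0.08 and missed the threshold (adjusted p of limma = 0.0512, 95% interval 0.01 to 0.33). It passed with the labelled sex and tissue as covariates (0.18, adjusted p of limma = 0.0415). Without the Δ12 line's +/+ group of cortex, its +/+ group of striatum or its Δ12/+ group of striatum it passed too, at 0.16, 0.20 and 0.19 (adjusted p of limma = 0.0376, 0.0219 and 0.0276). Without its Δ12/Δ12 group of cortex it was 0.10 (adjusted p of limma = 0.436).

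Entpd4 was at 3.80 ± 0.24 (n = 30) in the striatum-like and 4.11 ± 0.54 (n = 30) in the cortex-like libraries, with 22 of the latter within the range of the former. The difference was -0.09 ± 0.06 (adjusted p of limma = 0.139, 95% interval -0.21 to 0.02), and the sum of Entpd4 and Gm21685 gave -0.10 ± 0.07 (adjusted p = 0.163). These differences were small beside those of other genes, since 12807 of 16076 entries passed for class (79.7%), 6832 of them higher and 5975 lower in the striatum-like libraries. The absolute class differences of Nnt, Entpd4 and Wdfy1 were at or above those of 11.4%, 6.53% and 18.1% of the entries, whose median was 0.80.

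For Nnt and Wdfy1 the direction of the class difference rested on the scaling, while Entpd4 was below 0 under each. The rescaling raised the striatum-like relative to the cortex-like libraries by 0.37 on the log2 scale, which moves every entry alike apart from the pseudocount. On the FPKM as deposited, the class difference was -0.17 for Nnt (adjusted p of limma = 0.0627), -0.07 for Wdfy1 (adjusted p = 0.558) and -0.42 ± 0.07 for Entpd4, which passed, and 5125 entries were higher and 7387 lower. With quantile normalization it was 0.21 for Nnt (adjusted p of limma = 0.0117), 0.29 for Wdfy1 (adjusted p = 0.0033) and -0.21 for Entpd4 (adjusted p = 0.000607). The line difference stayed within 0.09 of 0 for the 3 members under each of them.

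**Figure D3:**
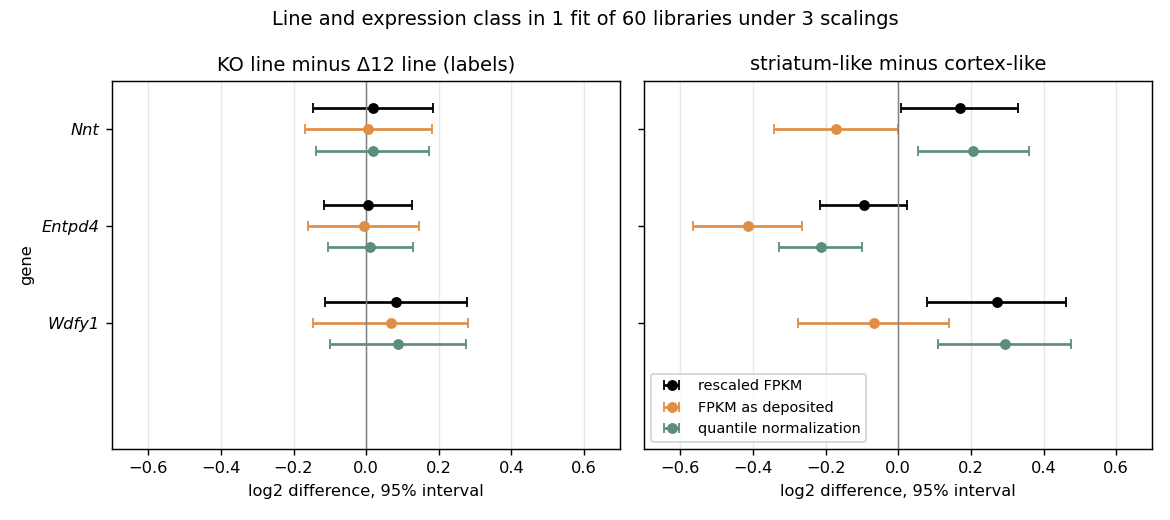
Log2 differences with 95% intervals for Nnt, Entpd4 and Wdfy1 from 1 fit of the 60 libraries, for labelled line (left) and expression class (right), with the FPKM rescaled, as deposited or quantile normalized. All intervals for line include 0, and for class Nnt and Wdfy1 move from above 0 (0.17 and 0.27, rescaled) to below 0 (-0.17 and -0.07) on the FPKM as deposited.

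The line and the class were also read alone, which shows how far they overlap. With line as the only term, the KO line was higher by 0.16 for Nnt (adjusted p of limma = 0.0030) and 0.31 for Wdfy1, which passed too, and Entpd4 was at -0.07 (adjusted p = 0.0589). With class as the only term, which sets the 30 striatum-like against the 30 cortex-like libraries, the differences were 0.18 for Nnt, 0.34 for Wdfy1 and -0.09 for Entpd4, and all 3 passed. Most other entries passed as well. With line as the only term 13632 entries passed, and for class 79.7% of 16076 entries passed in the fit with both terms. Passing in these fits therefore does not set the members apart from other entries. Depth (again in units of 1000000 fragments) had a median of 14.4 in the cortex-like and 18.2 in the striatum-like libraries, and its part in the class differences was not tested.

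The spread of each member was wider in the cortex-like libraries. The SD on the log2 scale was 0.231 against 0.101 for Nnt, 0.162 against 0.079 for Entpd4 and 0.278 against 0.123 for Wdfy1, in the cortex-like and striatum-like libraries. The ratios were 2.29, 2.04 and 2.25, and the median ratio over all tested entries was 1.60. Among entries with a mean within 2-fold of its own, Entpd4 had an SD at percentile 3.21 in the cortex-like and 1.55 in the striatum-like libraries, whereas Wdfy1 was at 50.9 and 24.1. Within a class the members shared little of their variation, apart from Nnt and Entpd4 in the striatum-like libraries. Nnt and Wdfy1 had a Pearson r of 0.07 in the 30 cortex-like and 0.14 in the 30 striatum-like libraries, and Nnt and Entpd4 had 0.07 and 0.46. The libraries share their scaling, so these r are descriptions only.

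The 10 labelled groups overlapped at every step of their order. By mean rescaled FPKM, Nnt ran from 9.62 ± 0.73 (SD, n = 6) in the group labelled striatum, KO line, KO/+ to 7.19 ± 1.04 in that labelled cortex, Δ12 line, Δ12/+. For Nnt the 4 groups of the KO line came first. Entpd4 ran from 4.37 ± 0.92 in the group labelled cortex, Δ12 line, +/+ to 3.70 ± 0.21 in that labelled striatum, KO line, +/+. Wdfy1 ran from 9.39 ± 1.01 in the group labelled striatum, KO line, +/+ to 6.85 ± 1.85 in that labelled striatum, Δ12 line, Δ12/Δ12, and the 4 KO-line groups again came first. For each member, all 9 pairs of neighbours in this order overlapped. Neighbours in an order of means are likely to overlap, and the share of all entries with such overlap was not counted. Groups farther apart did not always overlap. Nnt was at 8.64 to 9.86 in the group labelled cortex, KO line, KO/+ and at 5.50 to 8.44 in that labelled cortex, Δ12 line, Δ12/+. All libraries of the KO line were striatum-like, so line and class cannot be told apart in this order. The lead of the KO line also rested on the scaling. By mean FPKM as deposited, the group labelled striatum, Δ12 line, +/+ was highest for Nnt (10.3) and Wdfy1 (9.05). Nnt was then lowest in the group labelled cortex, KO line, KO/+ (7.53).

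The labelled genotypes were compared in fits of 12 libraries with labelled sex as a covariate. The sex-linked transcripts matched that label in only 30 of the 60 libraries. In the libraries labelled KO/+ against +/+ of the KO line, Nnt differed by 0.10 ± 0.06 in striatum (9.62 ± 0.73 against 8.91 ± 0.58 rescaled FPKM, n = 6 each, adjusted p of limma = 0.358) and by 0.02 ± 0.06 in cortex (adjusted p = 0.935). Entpd4 differed by 0.07 ± 0.06 and 0.05 ± 0.06, and Wdfy1 by -0.02 ± 0.07 and -0.08 ± 0.08, with adjusted p of limma between 0.522 and 0.901. No member passed, where 8.17% of the entries passed in the striatal (1292) and 0.114% in the cortical libraries (18).

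In the libraries labelled Δ12/Δ12 against +/+ of the Δ12 line, 28.7% of the entries passed in striatum (4443) and 0.79% in cortex (124). These counts rested on single libraries. In striatum, 5 to 31 entries passed without any 1 of the 6 libraries labelled female, +/+ or Δ12/Δ12. In cortex, 3994 passed without +/+ male 2 and 12 to 77 without any 1 of the others but Δ12/Δ12 male 3. No member was among the entries that passed. Wdfy1 differed by -0.19 ± 0.16 in striatum (6.85 ± 1.85 against 7.76 ± 1.76, n = 6 each, adjusted p of limma = 0.373) and by -0.004 ± 0.157 in cortex (adjusted p = 0.987). Both groups labelled Δ12/Δ12 held 3 striatum-like libraries, those labelled female, and 3 cortex-like ones, those labelled male. In striatum, the rescaled FPKM of Wdfy1 was 8.03, 8.33 and 8.80 in those labelled female and 4.06, 5.56 and 6.33 in those labelled male. In cortex it was 7.98, 8.73 and 9.48 in those labelled female and 5.03, 6.35 and 7.48 in those labelled male. On the FPKM as deposited the 2 sets overlapped in both tissues. There the libraries labelled female were at 7.07 to 8.07 in striatum and 7.26 to 8.37 in cortex. Those labelled male were at 4.66 to 8.05 and 5.78 to 8.73. Ddx3y did not follow these labels in striatum. On the log2 scale it was at -1 in male 1, male 2 and male 3. It was at -0.96, 2.93 and 2.97 in female 1, female 2 and female 3. Labelled sex is thus not the sex of each library. Labelled sex and expression class cannot be told apart in these groups. Nnt differed by -0.03 ± 0.08 and 0.06 ± 0.18, and Entpd4 by 0.08 ± 0.09 and -0.12 ± 0.15, in striatum and cortex.

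In the libraries labelled Δ12/+ against +/+, all 12 libraries of each tissue were cortex-like, and 0.00663% of the entries passed in striatum and 0.053% in cortex. Nnt differed by -0.06 ± 0.11 and -0.11 ± 0.16, Entpd4 by 0.06 ± 0.09 and -0.15 ± 0.13, and Wdfy1 by -0.06 ± 0.14 and -0.05 ± 0.14, in striatum and cortex. The adjusted p of limma lay between 0.741 and 1.00. Differences between the labelled tissues in the genotype effects were tested as interactions, 9 in all, and the smallest adjusted p of limma was 0.730.

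The +/+ libraries of the KO line were set against those of the Δ12 line, which in these labels is a comparison of 6 striatum-like with 6 cortex-like libraries, so line and class cannot be told apart in it. In this comparison 79.3% of the entries passed in striatum and 68% in cortex. Wdfy1 was at 9.13 ± 0.35 against 7.45 ± 1.13 rescaled FPKM in cortex (n = 6 each), a difference of 0.29 ± 0.10 (adjusted p of limma = 0.0253). On the FPKM as deposited the difference was 0.05 (adjusted p of limma = 0.782). In striatum it was at 9.39 ± 1.01 against 7.76 ± 1.76 (0.28 ± 0.13, adjusted p of limma = 0.0608). Without the Wdfy1-high library labelled striatum, Δ12 line, +/+ female 3, the striatal difference was 0.39 (adjusted p of limma = 0.0021). Without the library labelled +/+ female 2 of the KO line it was 0.33 (adjusted p = 0.0342). The cortical difference missed the threshold without male 3 of the Δ12 line (0.22), or without male 3 or female 1 of the KO line (0.28 each). Of the 24 differences of members in the 8 comparisons, only this cortical one of Wdfy1 passed. In exact permutation tests (2-sided) its p was 0.013, or 0.312 after adjustment over the 24. Nnt and Entpd4 did not pass in either tissue, at 0.02 ± 0.07 and -0.07 ± 0.06 in striatum and 0.19 ± 0.14 and -0.18 ± 0.13 in cortex.

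Gm21685, the copy of Entpd4, followed it from library to library. Its rescaled FPKM ran from 3.29 to 7.15, with a median of 4.17, and its deposited FPKM was above that of Entpd4 in 60 of 60 libraries. The ratio of the copy to Entpd4 lay between 1.02 and 1.29, with a median of 1.08. The ratio of 1.29 stood alone, in the library labelled cortex, Δ12 line, +/+ female 1, which also held the highest value of both entries (9.50 and 7.38 FPKM), and the next ratio was 1.14. Centred within class, the 2 entries had a Pearson r of 0.97 over 60 libraries. Reads of their identical exons cannot be told apart, and how these were divided between the 2 entries is not known. The largest gap of Gm21685 over the 60 libraries was 0.021, and it passed neither for line (0.03 ± 0.07) nor for class (-0.09 ± 0.07, adjusted p of limma = 0.202).

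**Figure D4:**
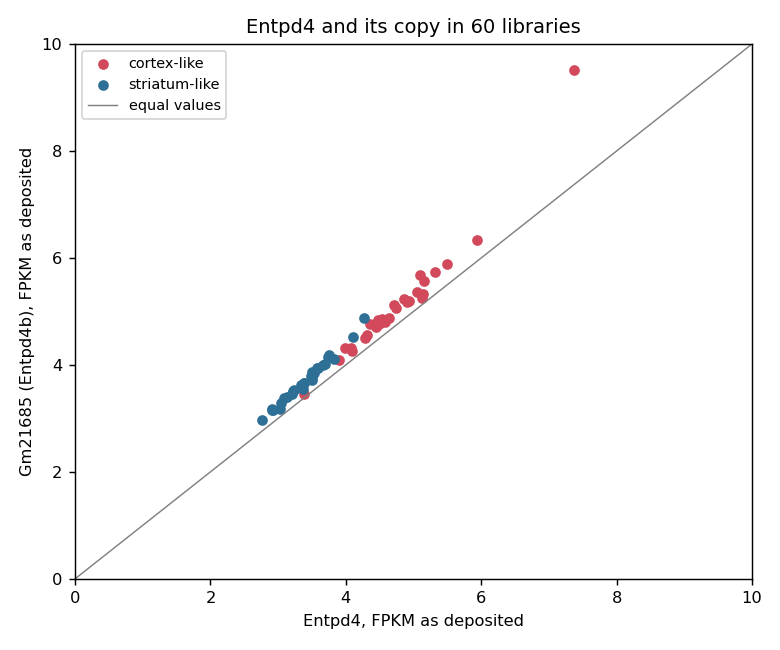
Deposited FPKM of Gm21685 (Entpd4b, vertical axis) against Entpd4 (horizontal axis) in the 60 libraries, coloured by expression class, with the line of equal values. Every point lies above the line, with a ratio of 1.29 in the library at the upper right and ratios of 1.02 to 1.14 in the others.

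Other genes at which C57BL/6 substrains or stocks are known to differ were read the same way. Of the 9 on this list, 6 passed the filter, and 0 of these passed for line, while 3 were higher and 2 lower in the striatum-like libraries (83.3% called, against 79.7% of all entries). None of the 6 had 2 levels. Cyfip2, a partner of the WAVE complex, differed by 0.92 ± 0.08 between the classes, Pisd, a mitochondrial phosphatidylserine decarboxylase, by -0.65 ± 0.07, and Dock2, an activator of Rac in blood cells, by 0.66 ± 0.09. Gabra2, a GABA-A receptor subunit whose level is low in C57BL/6J, was between 14.8 and 34.0 rescaled FPKM in all libraries, with a gap of 0.055. It differed by -0.47 ± 0.09 between the classes. The median line difference of the list was 0.04, against 0.004 over all entries. Class differences of genes here and below are from the fit with line and class on the rescaled FPKM. They set the 6 striatum-like libraries labelled Δ12/Δ12 female against the 30 cortex-like ones. Rescaling raised the striatum-like libraries by 0.37 on the log2 scale. The sign of a difference smaller than that may not hold on the FPKM as deposited.

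Enzymes that make or use NADPH, with antioxidant enzymes such as peroxidases and peroxiredoxins, were listed as the setting of Nnt. All 25 were tested, and 0 passed for line (median difference -0.004). For class, 10 were higher and 11 lower in the striatum-like libraries (84% called, against 79.7% of all entries), with a median difference of -0.06, against 0.05 over all entries. The 3 with the smallest adjusted p were antioxidant genes that were lower in the striatum-like libraries. Gpx4, the glutathione peroxidase of lipid peroxides, was at 21.8 to 28.7 rescaled FPKM against 169 to 405 in the cortex-like ones (-3.32 ± 0.11). Prdx5, a peroxiredoxin, differed by -2.47 ± 0.10 and Txn2, the mitochondrial thioredoxin, by -1.54 ± 0.07. The class difference of Nnt (0.17) was small beside these. The classes also differed in Ddx3y, which is not a marker of either tissue. In the libraries above its gap it was at 4.13 to 4.93 on the log2 scale in the cortex-like ones. In the striatum-like ones it was at 2.77 to 3.22. Whether the class differences of the listed genes are differences of tissue was not tested.

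Nucleotidases were listed with Entpd4. Of 13, 11 were tested, 0 passed for line, and 10 were higher and 0 lower in the striatum-like libraries (90.9% called, against 79.7% of all entries), with a median difference of 0.98, against 0.05 over all entries. Alpl, tissue-nonspecific alkaline phosphatase, differed by 1.58 ± 0.12, Nt5e, which makes adenosine from AMP outside cells, by 1.24 ± 0.14, and Enpp1 by 0.98 ± 0.12. Gm21685 was the only tested gene of this list that did not pass for class. Cant1 (0.16), Entpd6 (0.31) and Entpd5 (0.36) were among the higher ones, each by less than the 0.37 of the rescaling. Genes of FYVE domain proteins and of the Toll-like receptor adaptor pathway were listed with Wdfy1. Of 20, 19 were tested, 0 passed for line, and 13 were higher and 1 lower in the striatum-like libraries (73.7% called, below the 79.7% of all entries), with a median difference of 0.62. Zfyve26 differed by 1.57 ± 0.08, Pik3r4, a subunit of the kinase that makes the lipid FYVE domains bind, by 1.53 ± 0.11, and the endosome tether Eea1 by 0.94 ± 0.07. On this list Tlr3 was higher in the striatum-like libraries by 0.65 and Tlr4 was below the filter.

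No tested gene near a member passed for line either, as 0% of all entries did, while 79.7% passed for class. Within 500 kb of Nnt the tables hold 18 entries, of which 7 were tested and 0 passed for line. For class, Zfp131 (0.35 ± 0.09) and Nim1k (0.19 ± 0.09) were higher and 4833420G17Rik (-0.33 ± 0.11) and Paip1 (-0.18 ± 0.09) lower in the striatum-like libraries. The differences of Zfp131 and Nim1k were smaller than the 0.37 by which rescaling raised the striatum-like libraries. Within 500 kb of Entpd4 there were 34 entries, 8 tested, 0 passed for line, 5 higher and 1 lower by class. Rhobtb2 (1.55 ± 0.08), Slc25a37 (1.73 ± 0.11), Stc1 (0.88 ± 0.12), 4930480K23Rik (0.49 ± 0.16) and Gm16867 (0.68 ± 0.29) were higher and Chmp7 (-0.84 ± 0.06) lower. Rhobtb2 and Slc25a37 had 2 levels. Within 500 kb of Wdfy1 there were 20 entries, 7 tested, 0 passed for line, 4 higher and 2 lower by class. Cul3 (1.13 ± 0.08), Serpine2 (0.79 ± 0.07), Gm37902 (0.96 ± 0.15) and Scg2 (0.51 ± 0.09) were higher and Mrpl44 (-1.24 ± 0.09) lower. Gm23934 was listed at 0 in all striatum-like libraries and at up to 32050 rescaled FPKM in the cortex-like ones, and it was the only entry there with 2 levels.

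The entries whose pattern was most like that of a member, by Pearson r over the 60 libraries after centring within class, are named here as a description. For Nnt these were Thsd7a (0.66), Specc1 (0.65), Ap1m1 (0.63), Pde4b (0.63) and Samhd1 (0.62). For Entpd4 they were Gm21685 (0.97), Rnf146 (-0.72), Tmem44 (0.70), Serpina3n (-0.70) and Gm11847 (-0.69). For Wdfy1 they were Gm25412 (0.56), Snapc2 (-0.55), mt-Nd6 (-0.55), Rbbp8 (0.51) and A730017C20Rik (-0.51). Gm25412 did not vary in the striatum-like libraries, so its r rests on the cortex-like ones. Except for that entry and Gm21685, whose r was 0.97 in both classes, these r were farther from 0 in the cortex-like libraries, for example 0.72 against 0.10 for Nnt with Specc1 and -0.81 against -0.27 for Entpd4 with Rnf146. None of the genes near Nnt or Wdfy1 was among their 5.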

How the data were processed

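RNA-Seq was measured in 60 libraries of 10 labelled groups of 6. The authors deposited a table for each library that gives FPKM by gene entry with interval bounds, in the layout of Cufflinks per the file headers, on GRCm38 coordinates. The submitters' processing notes name bcl2fastq 2.20, Trimmomatic 0.30, TopHat2 2.0.14, SAMtools 1.3, HTSeq 0.6.1p1 and GRCm38.p4. The program behind the FPKM is not given in the sources used here, and no read counts were used. The members and gene lists were chosen with earlier results of these data known. Entries whose status was not OK in some library (23) were dropped, which was decided on seeing the tables.

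FPKM were divided by the median ratio of 13235 entries above 0 in every library to their geometric mean (factors 0.761 to 1.38). Tests used limma 3.58.1 in R 4.3.3 on log2(rescaled FPKM + 0.5), a scale that understates changes of low genes, among entries with a mean of at least 0.5, with Benjamini-Hochberg adjustment and a threshold of 0.05. The fit and the gap measure were tested on simulated data. The gap measure called 91 of 100 entries with 2 levels 1 apart on the log2 scale, and 0 with 1 level. Their spread was smaller than that of the members in the cortex-like libraries, and a spread as wide as that was not tested. It was also smaller than the SD of the members over the 60 libraries. That SD was 0.20 for Nnt, 0.13 for Entpd4 and 0.27 for Wdfy1. Levels less than 1 apart were not tested. The fit called 64 of 100 entries changed by 0.5 on the log2 scale, 94 changed by 1 and 13 unchanged ones. The fragments per library were inferred from how wide the intervals of 4111 long genes were, each with 1 transcript of 2000 nucleotides or more. Sequences and positions came from GENCODE for GRCm38.

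The genes named were the 3 members, the 3 with the smallest adjusted p of each list, the 5 most alike per member, and tested neighbours within 500 kb that passed, up to 8. Other genes named were chosen after their values were seen. A further gene of the lists is not reported here. For the library labelled striatum KO/+ female 3 the title names the other line, and the genotype label was used. Littermates or cultures are not tied to libraries by the labels, so p-values measure the spread between these libraries. Alternatives were another scaling, pseudocount, filter, class limit or set of covariates, blocks for the mouse or replicate number, groups or libraries left out, and exact permutation tests in scipy 1.17.1. The sum of Entpd4 and Gm21685, and the fits within 1 class or 1 line, were added after seeing the data.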

Additional observations from a re-analysis of the deposited data

Results flagged for a closer look

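Among the 30 sets of 6 libraries (3 members in 10 labelled groups), 2 held a library that stood apart from the other 5 by more than Dixon's criterion allows at 95%, and chance gives about 1 in 20 sets. Entpd4 was at 3.50 rescaled FPKM in the library labelled striatum, Δ12 line, +/+ female 2, against 3.89 to 4.08 in the other 5, a gap of 0.661 of the range. Wdfy1 was at 11.2 rescaled FPKM in the library labelled striatum, Δ12 line, +/+ female 3, against 6.20 to 7.69 in the other 5, a gap of 0.699 of the range. No effect of a labelled genotype on a member differed between the labelled tissues past the threshold.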

How the results depend on the processing

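The gap of each member stayed under the limit for 2 levels in every setting run. The line difference of the members passed only with line as the sole term (Nnt 0.16, Wdfy1 0.31), where Entpd4 was at -0.074. Entpd4 also turned from 0.0049 to -0.0072 on FPKM as deposited and to -0.037 with a class limit of 50. Without 1 labelled group the line difference was -0.034 to 0.071 for Nnt and -0.013 to 0.023 for Entpd4. Entries called for line numbered 24 with no filter, 6629 with the class limit of 50, 13632 with line alone, 1 in the striatum-like libraries alone and 0 to 13 without 1 group. The class difference on FPKM as deposited was -0.17 for Nnt, -0.42 for Entpd4 and -0.068 for Wdfy1. With quantile normalization it was 0.21 for Nnt and -0.21 for Entpd4, with class as the sole term 0.18 and -0.091, and with sex and tissue as covariates 0.18 for Nnt, past the threshold in each case. Without 1 group it was 0.10 to 0.23 for Nnt and 0.23 to 0.30 for Wdfy1.

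In the labelled comparisons, FPKM as deposited gave -0.0098 for Entpd4 in striatum KO/+, -0.066 for Entpd4 in striatum Δ12/Δ12, -0.14 for Nnt and -0.097 for Entpd4 in cortex KO/+, -0.029 for Nnt in cortex Δ12/Δ12 and 0.015 for Wdfy1 in cortex Δ12/+. Between the +/+ libraries of the lines it gave -0.29 for Nnt, -0.36 for Entpd4 and -0.030 for Wdfy1 in striatum, and -0.044, -0.41 and 0.048 in cortex. The differences of Nnt and Entpd4 in striatum and of Entpd4 in cortex then passed. In this comparison 11289 to 15275 entries passed in striatum and 9866 to 12710 in cortex over the other settings. Quantile normalization gave -0.19 for Entpd4 and 0.32 for Wdfy1 between the lines in striatum, both past the threshold, 0.052 for Wdfy1 in cortex Δ12/Δ12 and 0.0068 in cortex Δ12/+. With sex and class as covariates, Nnt was at 0.017 in striatum and -0.19 in cortex Δ12/Δ12. The cause was not tested.

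Without 1 library, Nnt ranged from -0.013 to 0.050 between the lines in striatum, from -0.019 to 0.049 in cortex KO/+, from -0.069 to 0.13 in cortex Δ12/Δ12 and from -0.063 to 0.00062 in striatum Δ12/Δ12. Wdfy1 ranged from 0.22 to 0.36 between the lines in cortex and from 0.21 to 0.39 in striatum, from -0.066 to 0.033 in striatum KO/+, from -0.14 to 0.038 in striatum Δ12/+, from -0.13 to 0.015 in cortex Δ12/+ and from -0.055 to 0.093 in cortex Δ12/Δ12.

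The labels give the groups the same replicate numbers, but these name different mice, and the 48 pairs of libraries with the same number and sex deviated together with r of -0.21 to 0.09, so the numbers were not taken as pairs. With a replicate block, the Wdfy1 difference between the lines was 0.28 in striatum (adjusted p of limma = 0.0246) and 0.29 in cortex (adjusted p = 0.0555), and no other call of a member changed. The exact permutation test of the latter, 0.29, gave an adjusted p of 0.312.

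Counts of entries called moved with the setting. With all libraries, over the other settings, they were 136 to 1308 (1292 in the report) for striatum KO/+, 5 to 8070 (4443) for striatum Δ12/Δ12, 0 to 2 (1) for striatum Δ12/+, 1 to 147 (18) for cortex KO/+, 6 to 7949 (124) for cortex Δ12/Δ12 and 1 to 52 (8) for cortex Δ12/+. Without 1 library they were 765 to 1444, 5 to 6351, 1 to 2, 5 to 28, 12 to 3994 and 4 to 17 in the same order. For striatum KO/+ the count fell to between 765 and 845 without +/+ male 1, female 1 or female 3, or KO/+ female 1 or female 2. For cortex KO/+ it was 5 to 11 without +/+ male 2, male 3 or female 1, or KO/+ male 1 or male 2, and 28 without KO/+ female 3. For cortex Δ12/+ it was 4 or 5 without any 1 of the 6 libraries labelled male or without Δ12/+ female 3, and 17 without +/+ female 1. FPKM without counts and an estimated depth limit what can be said of small differences.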
